A study of Mus musculus with 6 samples.

Results

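The dystrophin glycoprotein complex is described here in soleus muscle, a slow postural muscle of the hindlimb, of mice that use cardiac actin in place of skeletal muscle alpha-actin. Its 8 genes were Dmd (dystrophin), Utrn (utrophin), Dag1 (dystroglycan), the sarcoglycans Sgca, Sgcb and Sgcd, Dtna (alpha-dystrobrevin) and Sspn (sarcospan). They were found in a table of 34492 rows by the deposited target names DMD, UTRN, DAG1, SGCA, SGCB, SGCD, DTNA and SSPN, and each name had 1 row. The comparison was between 3 RNA samples labelled Coco/KO and 3 labelled Wildtype. Per the series title, cardiac actin replaces the skeletal muscle form (Acta1) in the Coco/KO mice, but the sources used here do not name the promoter that drives it. All mice were male and 11 months old, and both genotypes carry the strain designation CBB6F1xFVB/n. Each sample was a pool of RNA from 2 soleus muscles of different mice, so p-values measure the spread between pools. All 6 samples were hybridised to 1 Illumina beadchip, on which beads carrying a gene's probe report its RNA as a fluorescence intensity.

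The complex spans the plasma membrane of the muscle fibre. Dystrophin, or utrophin in its place, binds actin filaments under the membrane and the beta subunit of dystroglycan, whose alpha subunit binds laminin in the basement membrane through a sugar chain. The sarcoglycans and sarcospan stabilise this link within the membrane, and dystrobrevin and the syntrophins attach signalling proteins to its inner side. Loss of dystrophin or of a sarcoglycan causes muscular dystrophy, in which contraction damages the membrane.

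The promoters of 3 of these genes are shown, Dmd because it names the complex, and Dag1 and Sgcd because they were the members whose signal did not overlap between the genotypes. The sequences are those of RefSeq on build GRCm38.p6, from 250 bases before to 50 bases after the first listed start of each gene. Capitals mark matches to 3 motifs searched on both strands: the CArG box, bound by the actin-regulated factor SRF, the E-box CANNTG of myogenic factors, and CATTCC, the core of the MCAT element of muscle genes.
Dmd, chrX:82948620-82948919, plus strand: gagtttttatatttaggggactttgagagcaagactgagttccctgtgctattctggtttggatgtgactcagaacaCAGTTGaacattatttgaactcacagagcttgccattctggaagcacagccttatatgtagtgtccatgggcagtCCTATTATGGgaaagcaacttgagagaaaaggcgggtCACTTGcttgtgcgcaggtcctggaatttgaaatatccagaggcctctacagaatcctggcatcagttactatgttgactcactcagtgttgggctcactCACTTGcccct
Dag1, chr9:108263909-108264208, minus strand: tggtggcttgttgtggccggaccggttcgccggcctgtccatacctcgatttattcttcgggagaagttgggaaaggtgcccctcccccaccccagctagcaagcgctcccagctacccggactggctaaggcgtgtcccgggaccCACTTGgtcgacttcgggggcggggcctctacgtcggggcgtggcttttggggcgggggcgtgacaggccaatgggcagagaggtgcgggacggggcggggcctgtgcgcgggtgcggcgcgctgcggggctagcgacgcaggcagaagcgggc
Sgcd, chr11:47379276-47379575, minus strand: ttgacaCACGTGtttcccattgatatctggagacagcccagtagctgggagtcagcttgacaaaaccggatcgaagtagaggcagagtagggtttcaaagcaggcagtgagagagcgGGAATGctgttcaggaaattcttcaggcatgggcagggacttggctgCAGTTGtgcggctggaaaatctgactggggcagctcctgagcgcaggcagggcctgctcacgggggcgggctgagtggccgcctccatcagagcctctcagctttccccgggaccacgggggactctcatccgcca
No marked matches overlap in these windows. The Dmd window held 1 CArG box, which began 98 bases before the start, and 3 E-boxes. The Dag1 window held 1 E-box, and the Sgcd window held 2 E-boxes and 1 CATTCC. Among all 32841 promoter windows of this length, 1.63% held a CArG box, 72.3% an E-box and 14.7% a CATTCC. Over the members, 7 genes had 10 windows, of which 1 held a CArG box, 7 an E-box and 3 a CATTCC. The windows are not independent. Those of Dag1 overlap and share their 1 E-box, and Sspn windows 1 and 2 both held a CATTCC. These matches are a description of the letters and are not shown here to be bound.

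The actins were read first as a check of the labels. Acta1, the targeted gene, had intensities of 43171.4, 49461.9 and 41189.6 in wild-type arrays 1 to 3 and 2356.8, 1470.7 and 1761.1 in Coco/KO arrays 1 to 3, a log2 difference of -4.59 (SE 0.20, limma adjusted p = 2.96e-05). Actc1, cardiac actin, was higher on every Coco/KO array (3733.5 to 7678.5) than on every wild-type array (596.8 to 1485.3, adjusted p = 0.0298). Each array detected between 33.6% and 37.9% of its rows, with a median bead number of 35 or 36 per row, and precision is limited by there being 3 arrays per genotype. All 12 markers of slow and general skeletal muscle fibres passed the detection filter, with summed intensities of 262272 to 312061 in wild-type and 259097 to 301600 in Coco/KO arrays. The Coco/KO 1 array had the lowest mean correlation with the others (0.970, against 0.975 to 0.977), and the Coco/KO 3 array had the strongest macrophage signal, given with the results it touches.

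None of the complex genes passed the test between genotypes. Of the 8 rows, 7 were detected on all 6 arrays and were tested, and Dmd, detected on 2 arrays, was not. Among the 7, the count past an adjusted p of 0.05 (limma on normalized log2 signal, Benjamini-Hochberg adjustment over all rows) was 0, where 0.148% of the 12135 genes tested were called (0.0659% higher and 0.0824% lower in Coco/KO muscle). At an unadjusted p under 0.05 there were 2 members, Dag1 with a lower and Sgcd with a higher mean in Coco/KO muscle, against 8.22% of all genes tested (4.0% higher and 4.22% lower). The same 2 were the members without overlap between genotypes, beside 12.7% of all genes (6.16% higher and 6.58% lower). The median log2 difference of the 7 was 0.045, with 4 higher and 3 lower means, and that of all genes tested was 0.0014. Their median absolute difference was 0.19, against 0.14 over all genes.

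**Figure D1:**
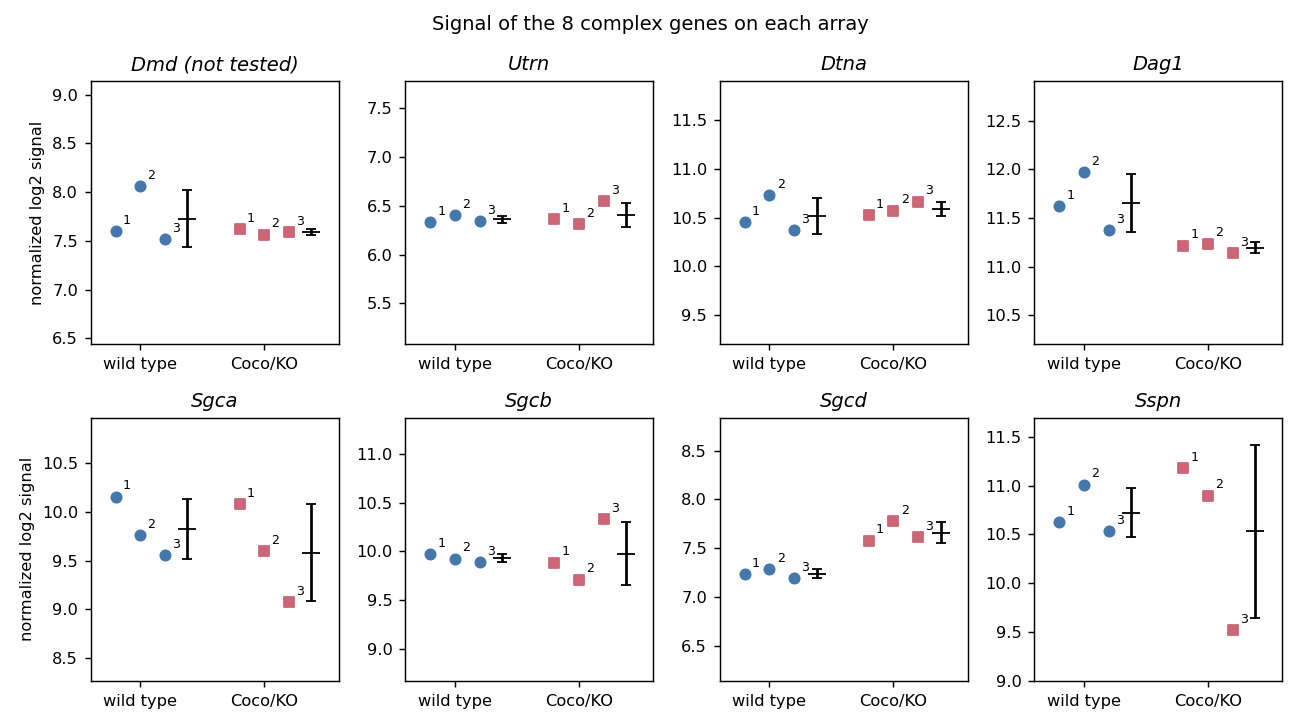
Normalized log2 signal of the 8 genes on each array, with wild-type arrays as circles, Coco/KO arrays as squares, replicate numbers beside the points and a bar for the mean and SD (n = 3 per genotype). Every panel spans the same range, and only Dag1 and Sgcd show no overlap between the genotypes.

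Dystrophin, the large rod-shaped protein that ties actin filaments to the membrane, gave intensities of 114.3, 249.3 and 126.1 in wild-type arrays 1 to 3 and 140.2, 96.7 and 170.7 in Coco/KO arrays 1 to 3. The genotypes overlapped, and the highest value was on the wild-type 2 array. The Dmd row was called detected on 1 array of each genotype although it was not dim. Of 2545 rows with a mean intensity within its range, 89.7% passed the detection filter that it did not. The sources used here do not say how the scanner software made 1 value and 1 detection score for a target, and dystrophin has several promoters and transcripts that a single row cannot tell apart. Fitted on all rows without the filter, its log2 difference was -0.14 (SE 0.16, 95% interval -0.49 to 0.22, limma adjusted p = 0.952), and it was 0.032 without the wild-type 2 array and -0.043 with modelled background. The 3 Coco/KO arrays lay close together on the normalized scale (7.59 ± 0.027, SD, n = 3), while wild type had 7.73 ± 0.29.

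Utrophin is the close relative of dystrophin that in adult fibres is concentrated at nerve and tendon junctions and that spreads along the membrane when dystrophin is lost or fibres regenerate. Its row was the dimmest of the 8, with intensities of 19.9, 28.4 and 24.3 in wild-type and 21.6, 17.8 and 42.2 in Coco/KO arrays 1 to 3. The genotypes overlapped, and the highest value was that of Coco/KO 3. The log2 difference was 0.048 (SE 0.14, 95% interval -0.27 to 0.36, limma adjusted p = 0.978), and it was -0.021 without the Coco/KO 3 array. At this level the standard error over the beads of 1 array was 21.2% to 46.6% of the value, and the 58.7 units added to every intensity before the log2 step narrow the difference and its interval. With an offset of 1 in place of 16 within those units the difference was 0.058, and with modelled background it was 0.0051.

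Alpha-dystrobrevin binds dystrophin and the syntrophins on the inner side of the membrane. Dtna had intensities of 1078.8, 1940.4 and 1273.4 in wild-type and 1476.1, 1133.9 and 2004.5 in Coco/KO arrays 1 to 3. The ranges of the genotypes overlapped almost fully. The log2 difference was 0.066 (SE 0.15, 95% interval -0.28 to 0.41, limma adjusted p = 0.970), so that a change of more than 1.33-fold upward or 1.21-fold downward lies outside the interval. Without the wild-type 3 array it was -0.0063. A second row of this gene, deposited under a clone name, was detected on no array. The detection p-values of the first Dtna row were 0.00049 to 0.0173, while those of the much dimmer Sgcd row were 0 on every array.

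Dystroglycan is made as a precursor that is cut into the laminin-binding alpha and the membrane-spanning beta subunit. Dag1 had intensities of 2451.8, 4681.6 and 2677.7 in wild-type and 2419.7, 1853.7 and 2723.6 in Coco/KO arrays 1 to 3, and these deposited values overlapped through the Coco/KO 3 array. After normalization they did not overlap: the log2 signals were 11.62, 11.97 and 11.38 in wild-type and 11.22, 11.24 and 11.14 in Coco/KO muscle. The means were 11.66 ± 0.30 and 11.20 ± 0.053 (SD, n = 3). The log2 difference was -0.46 (SE 0.18, 95% interval -0.86 to -0.061), or 1.38-fold, and did not pass over all genes (limma adjusted p = 0.519). An exact permutation test, two-sided, gave p = 0.1, the smallest value that 3 arrays against 3 allow. The spread among the wild-type arrays made up most of the error, and without the wild-type 2 array the difference was -0.31. In the 18 alternative settings it kept its sign, from -0.59 to -0.31, with adjusted p-values from 0.509 to 1.00. Fat cell markers, which include no gene of the complex, were also highest on the wild-type 2 array. Their summed intensity was 14945.6 to 38696.1 in wild-type and 11312.9 to 15309.4 in Coco/KO arrays, with Plin1 detected on no array, and their part in the Dag1 value was not tested. These sums are of deposited intensities. The wild-type 2 array was also the highest of all 6 for soleus muscle, fast fibre, endothelial and Schwann cell markers. Mean intensity over all rows was 452.3 there, 332.0 and 416.9 in wild-type arrays 1 and 3, and 330.2 to 470.2 in Coco/KO arrays. In whole muscle, fewer cells of a type and less RNA per cell cannot be told apart.

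The sarcoglycans form a subcomplex of single-pass membrane proteins beside dystroglycan. Delta-sarcoglycan (Sgcd), a core subunit on which assembly of the others depends, had intensities of 78.4, 116.7 and 91.2 in wild-type and 133.9, 118.5 and 175.4 in Coco/KO arrays 1 to 3. Every Coco/KO array was above every wild-type array, before and after normalization, although only narrowly before it. The normalized log2 signals were 7.23, 7.29 and 7.20 in wild-type and 7.58, 7.78 and 7.62 in Coco/KO muscle, with means of 7.24 ± 0.046 and 7.66 ± 0.11 (SD, n = 3). The log2 difference was 0.42 (SE 0.14, 95% interval 0.11 to 0.73), or 1.34-fold, and did not pass over all genes (limma adjusted p = 0.434). The 58.7 units added before the log2 step narrow this fold. The deposited means were 95.4 in wild-type and 142.6 in Coco/KO arrays. The exact permutation p of Sgcd was again the smallest possible, 0.1. With 1 array left out the difference stayed between 0.37 and 0.45. With background modelled from the detection p-values it shrank to 0.096, and its SE shrank to 0.021 (limma adjusted p = 0.474). That setting is limited because these p-values did not follow intensity in every row. On the Coco/KO 1 array the detection p was 0.252 for Dmd at 140.2 units and 0.0082 for Utrn at 21.6 units.

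A second row of Sgcd, deposited under a clone name that the gene table lists as its synonym, did not separate the genotypes. The first row stood for the gene because its mean normalized log2 signal was higher, although its mean deposited intensity was the lower of both. The intensities of the second were 21.5, 172.3 and 181.1 in wild-type and 95.1, 96.9 and 178.2 in Coco/KO arrays 1 to 3, with the lowest and the highest value both in wild type. Its log2 difference was 0.19 (SE 0.36, 95% interval -0.62 to 1.00, limma adjusted p = 0.961). The wide interval includes the value of the first row, and which transcripts either row measures is not stated in the labels or headers.

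**Figure D2:**
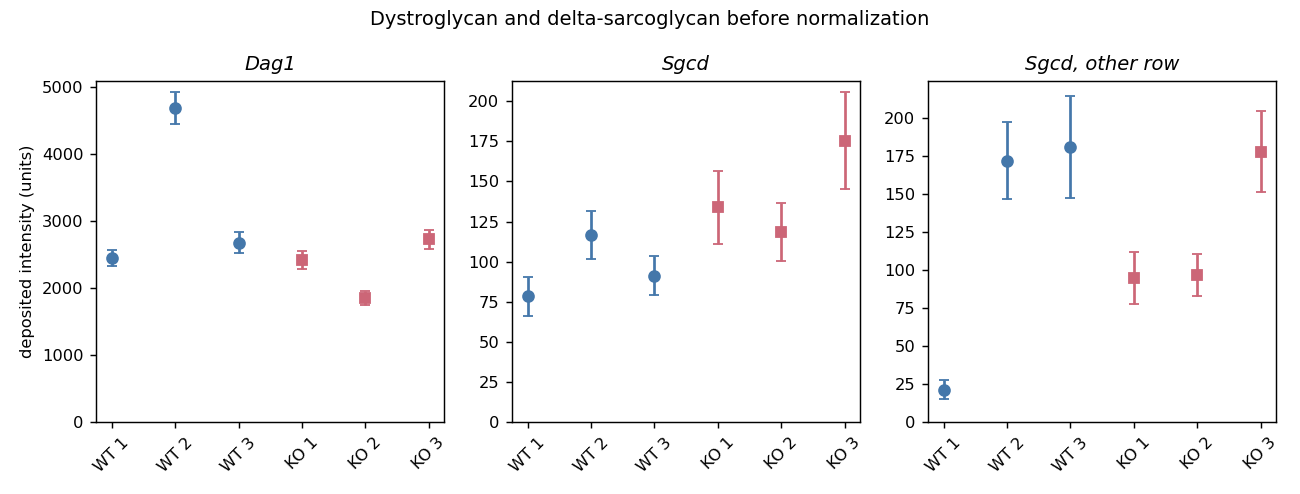
Deposited intensity of Dag1 and of both rows of Sgcd on each array before normalization, with wild-type arrays (WT) as circles, Coco/KO arrays (KO) as squares and bars for the standard error over the beads of that array. Sgcd was higher on all 3 Coco/KO arrays in its first row but not in the other, and Dag1 was highest on WT 2 (4681.6).

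Alpha-sarcoglycan (Sgca), the subunit restricted to striated muscle, had intensities of 847.4, 975.5 and 699.6 in wild-type and 1093.4, 544.2 and 609.5 in Coco/KO arrays 1 to 3. Coco/KO muscle held both the highest and the lowest deposited value. The log2 difference was -0.24 (SE 0.26, 95% interval -0.85 to 0.36, limma adjusted p = 0.915). It was 0.012 without the Coco/KO 3 array and -0.59 with the position on the chip in the model. Beta-sarcoglycan (Sgcb), which pairs with delta-sarcoglycan in the core, had intensities of 751.0, 1083.7 and 888.1 in wild-type and 947.2, 594.3 and 1582.6 in Coco/KO arrays 1 to 3. Its log2 difference was 0.045 (SE 0.18, 95% interval -0.37 to 0.46, limma adjusted p = 0.988), and -0.13 without the Coco/KO 3 array. The wild-type arrays agreed closely for Sgcb (SD 0.042 on the log2 scale), and the spread lay in the Coco/KO arrays (SD 0.32).

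Sarcospan, a small protein with several membrane spans that sits with the sarcoglycans, varied most. Sspn had intensities of 1204.7, 2395.4 and 1440.8 in wild-type and 2360.9, 1447.1 and 865.0 in Coco/KO arrays 1 to 3. Coco/KO 1 was close to the highest wild-type array in deposited intensity and was the highest of all 6 after normalization (11.18, against 11.01 in wild-type 2). Coco/KO 3 was below all others on both scales. The values came from 32, 36 and 39 beads in wild-type and 14, 22 and 21 in Coco/KO arrays 1 to 3. The log2 difference was -0.19 (SE 0.39, 95% interval -1.07 to 0.69, limma adjusted p = 0.964), and it was 0.32 without the Coco/KO 3 array. A change of 2.10-fold downward or 1.61-fold upward therefore lies within what these arrays allow.

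**Figure D3:**
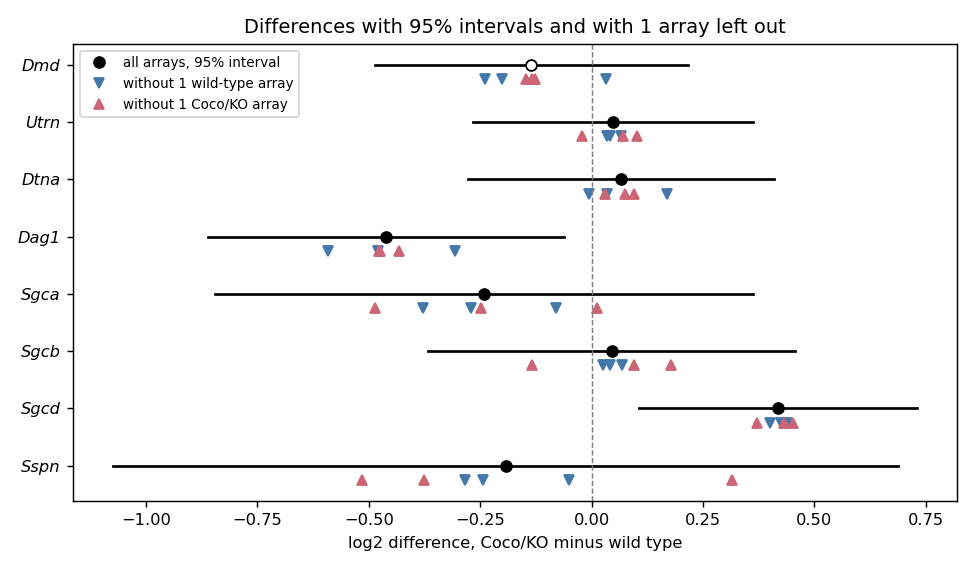
Log2 difference between Coco/KO and wild-type muscle for the 8 genes, with its 95% interval (circles and lines; open for Dmd, fitted without the detection filter) and the value with 1 array left out (triangles). Dag1 and Sgcd kept their sign in every leave-one-out set, and each of the other 6 changed sign in 1 set.

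The members differed widely in how tightly replicate pools agreed. The pooled SD within genotypes was 0.083 for Sgcd, 0.091 for Utrn, 0.14 for Dtna, 0.21 for Dag1, 0.23 for Sgcb, 0.42 for Sgca and 0.65 for Sspn on the log2 scale, where the median over all genes tested was 0.22. Of all genes tested, 98.3% had a smaller SD than Sspn and 4.94% a smaller one than Sgcd. The constant added before the log2 step narrows the spread of dim rows such as Utrn and Sgcd.

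Every array held an extreme value of some member on the normalized scale. The Coco/KO 3 array was the lowest of all 6 for Sspn (9.51), Sgca (9.08) and Dag1 (11.14) and the highest for Sgcb (10.33) and Utrn (6.55). For Dag1 the other Coco/KO arrays were close, at 11.22 and 11.24. Wild-type 2 was the highest for Dmd, Dag1 and Dtna, and wild-type 3 was the lowest for Dmd, Sgcd and Dtna. The share of all genes with an extreme on a given array was not counted. The Coco/KO 3 array had the strongest signal of macrophages and leukocytes, whose summed intensity over 15 markers was 15056.6 there, against 4701.2 and 5550.3 in the other Coco/KO arrays and 3608.5 to 4467.9 in wild type. None of the 14 markers tested passed the test, 14 of 14 had higher means in Coco/KO muscle, and Ptprc was detected on no array. Their part in the values of the complex genes was not tested. The summed intensity of satellite cell and regeneration markers was 2756.2 to 3259.0 in Coco/KO and 846.9 to 1126.6 in wild-type arrays, and this gap was carried by Myh3. Without Myh3 the sums overlapped, at 1055.8, 552.7 and 794.4 in Coco/KO and 685.9, 709.9 and 576.5 in wild-type arrays 1 to 3. Myh3, embryonic myosin heavy chain, was the 1 gene of the cell type lists past the threshold (log2 difference 2.77, SE 0.28, limma adjusted p = 0.0124). Of the other markers tested, named after their values were seen, Ncam1 had a log2 difference of 1.16 and Myf5, a myogenic factor of satellite cells, -0.47, each without overlap, while Vcam1 (0.12), Cdh15 (0.10) and Myh8 (0.045) overlapped. Myh3 kept its call in 15 of 18 alternatives, with limma adjusted p-values from 7.94e-05 to 0.351. It lost it without wild-type 1 (0.0641), without wild-type 3 (0.0628) and with modelled background (0.351). Pax7, which marks satellite cells, was detected on no array. No gene of the other cell type lists passed the test. Their median log2 differences were 0.67 for macrophages and leukocytes, 0.046 for soleus muscle, -0.16 for fast fibres and -0.81 for adipocytes. Medians were -0.29 for smooth muscle and pericytes, -0.11 for endothelium, -0.15 for Schwann cells and nerve, and -0.045 for fibroblasts and tendon.

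The comparison was extended to other subunits and partners of the complex. Of 23 such genes 14 were tested, and none passed an adjusted p of 0.05 in limma, with 5 higher and 9 lower means, a median log2 difference of -0.070 and 3 at an unadjusted p under 0.05 (8.22% over all genes tested). Cmya5, myospryn, which binds dystrobrevin's partner dysbindin and is an abundant muscle protein, had intensities of 3428.0, 8736.6 and 4591.3 in wild-type and 3483.7, 2303.3 and 3364.7 in Coco/KO arrays 1 to 3. Its log2 difference was -0.78 (SE 0.22, adjusted p = 0.359). Like Dag1, it was highest on the wild-type 2 array, and without that array its difference was -0.53. Cav3, caveolin-3 of the fibre's membrane pits, was higher on every Coco/KO array (424.8, 508.4 and 503.9) than on every wild-type array (236.9, 334.7 and 301.5), with a log2 difference of 0.63 (SE 0.20, limma adjusted p = 0.423), which was 0.41 without the Coco/KO 2 array. Synm, synemin, an intermediate filament protein that binds dystrobrevin, had a log2 difference of -0.84 (SE 0.31), which was -0.50 without the Coco/KO 1 array. Of the others, 7 were detected on no array: Drp2, Krt8, Krt19, Sgce, Sgcz, Sntb1 and Sntg1.

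On the outer side, the list held laminins, other matrix ligands and the integrin that binds laminin in parallel. Of 16 genes 13 were tested, and none passed in limma, with 7 higher and 6 lower means, a median log2 difference of 0.055 and 3 at an unadjusted p under 0.05 (8.22% over all genes tested). Lgals3, galectin-3, a sugar-binding protein made in quantity by macrophages, had intensities of 1235.7, 1814.3 and 1826.4 in wild-type and 2680.4, 5678.4 and 18916.0 in Coco/KO arrays 1 to 3. Its log2 difference was 1.98 (SE 0.52, limma adjusted p = 0.325), and without the Coco/KO 1 array it was 2.66 and passed (adjusted p = 0.0187, within a range over 18 alternatives of 0.0187 to 1.00). Without the Coco/KO 3 array it was 1.37. Its highest array was the one with the highest macrophage sum, but the order differed on the other Coco/KO arrays. There Lgals3 was higher on Coco/KO 2, and the macrophage sum was higher on Coco/KO 1 (5550.3 against 4701.2). The part of macrophages in the Lgals3 value was not tested. Bgn, biglycan, a matrix proteoglycan that binds dystroglycan and sarcoglycans, had a log2 difference of 0.65 (SE 0.21, adjusted p = 0.423) without overlap between genotypes after normalization. Its difference was 0.26 with modelled background (SE 0.10). Itga7, the laminin-binding integrin subunit of muscle, had -0.46 (SE 0.17, adjusted p = 0.485), also without overlap. With modelled background it was -0.14 (SE 0.044). Lama2, the laminin chain to which alpha-dystroglycan of muscle binds, had 0.22 (SE 0.14). This was 0.042 with modelled background (SE 0.020) and 0.13 without the wild-type 3 array.

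Enzymes that build the laminin-binding sugar chain of alpha-dystroglycan formed the last list. Of 19 genes 17 had a row and 12 were tested. None passed in limma, with 9 higher and 3 lower means, a median log2 difference of 0.10 and 1 at an unadjusted p under 0.05 (8.22% over all genes tested). That gene was Pomgnt2, which adds an early sugar of the chain, with intensities of 454.6, 561.3 and 584.4 in wild-type and 405.2, 285.3 and 492.9 in Coco/KO arrays 1 to 3. Its log2 difference was -0.40 (SE 0.14, adjusted p = 0.482), and its normalized signals did not overlap. Pomt2, which adds the first mannose, had 0.29 (SE 0.16), and Gmppb, which makes the mannose donor, 0.18 (SE 0.16). With modelled background these were 0.049 (SE 0.023) and 0.021 (SE 0.019), and with 1 array left out Gmppb ranged from 0.095 to 0.27. Over the 3 lists, 39 genes were tested. Of these, 7 had a limma unadjusted p under 0.05, beside 8.22% of all genes, and 9 were without overlap between genotypes, beside 12.7%.

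**Figure D4:**
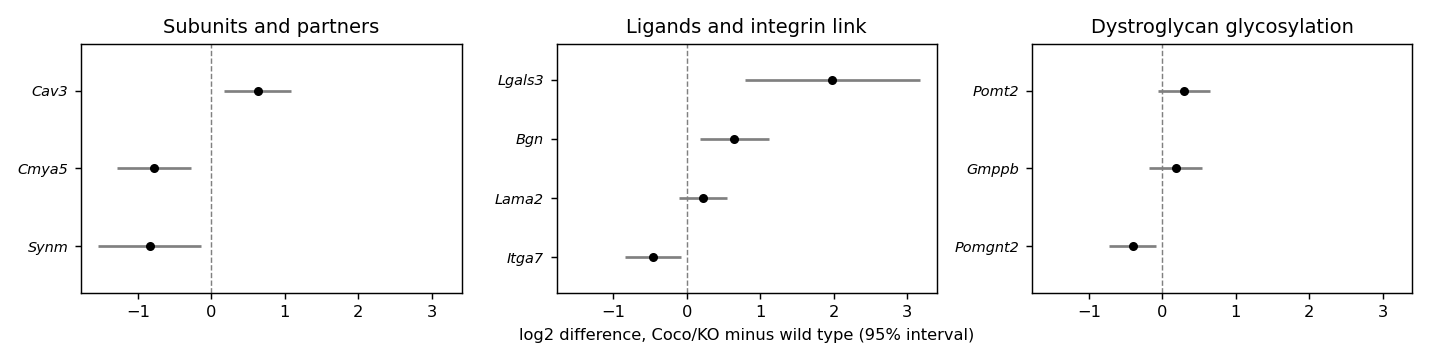
Log2 difference between Coco/KO and wild-type muscle with its 95% interval for the genes of the 3 lists described in the text, sorted by size within a list. Values run from -0.84 (Synm) to 1.98 (Lgals3), and none of the genes shown passed the test over all genes.

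The tested genes whose centred log2 signal over the 6 arrays was nearest to that of Utrn, which stood in for the untested Dmd, were Nfu1, Cstf3 and Gfral. Their root mean square differences from Utrn were 0.037, 0.039 and 0.041, where the median gene had 0.22. Utrn itself varied by 0.078 around its mean, so the likeness is that of rows with little variation.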

How the data were processed

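RNA was measured in 6 soleus samples, 3 per genotype, grouped by the sample titles. The deposited table holds intensity values exported with BeadStudio 3.2.6 without normalization, per the file headers, with the bead number and bead SD of each value and a detection score that fits 1 minus the detection p-value. Between 30.1% and 32.9% of the deposited intensity values of an array are at or below 0, so a background had been subtracted. In the table, 24 further columns (lowest and highest signal and the like) were not used, nor was the authors' value table, whose probe identifiers could not be paired with genes here. The submitters' processing notes also name limma.

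A constant of 42.7 and an offset of 16 were added, and values were put on the log2 scale, quantile normalized and compared with limma 3.58.1 in R 4.3.3, on the 12611 rows that at least 3 arrays detected at p under 0.05. The fit used genotype alone, with Benjamini-Hochberg adjustment over all rows and a threshold of 0.05. An exact permutation test was added for single members. Older row names were replaced through RefSeq's gene table (GRCm38.p6). Of 34492 rows, 22815 matched, among them Synm and Pomgnt2 through older names, and the row of highest mean normalized log2 signal stood for a gene in the tests. The fit was also run on simulated data with independent normal noise and SDs shuffled across genes. That setting differs from these arrays, and no result here rests on it. Promoters were searched with Python 3.11.15. Genes named were all members, the 4 of lowest p in each pathway list, listed genes past the threshold and the 3 nearest in pattern. Some genes that this rule picks are not reported here. The members and lists were chosen with earlier results of these data known. Alternatives covered normalization, offset, background, filter, variance model, array weights, replicate block, chip position, threshold, rows per gene and each array left out.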

Additional observations from a re-analysis of the deposited data

How the results depend on the processing

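Over 143 values of the 8 complex genes in alternative settings, none was called and 137 kept the sign of the reported value. The 6 that changed sign came from leaving out 1 array. With 1 array left out, Dmd ranged from -0.24 to 0.032, Utrn from -0.021 to 0.10, Dtna from -0.0063 to 0.17, Sgca from -0.49 to 0.012, Sgcb from -0.13 to 0.18 and Sspn from -0.52 to 0.32 on the log2 scale. The alternatives for Dmd and the second row of Sgcd were added after the data were seen. The cause of these changes was not tested. Of 233 values of the named partner genes and Myh3, all kept their sign. The 18 genes called over all genes became 9 with an offset of 50, 2 (both lower) with modelled background, 5 without normalization between arrays, 9 on rows detected on all arrays, 11 with chip position in the model, and between 5 and 29 with 1 array left out; the cause was not tested. The count of called ligand genes ranged from 0 to 1 with 1 array left out. Same-numbered samples did not deviate together (correlations of -0.045, -0.29 and 0.091, 1 of 3 matching its own number best), so the numbers were not used to pair samples. With the replicate block 13 genes were called, none of them a complex gene. Differences of dim rows depend on the added constant and the background step. With modelled background Utrn was 0.0051 (SE 0.015) and Sgcd 0.096 (SE 0.021).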
